A study of Mus musculus with 4 samples.

Results

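The 8 genes that encode the subunits of TRiC, the cytosolic chaperonin, were followed through ribosome footprints of mouse embryonic stem cells. The genes were chosen by name, as the rows of the footprint table whose symbol is Tcp1, Cct2, Cct3, Cct4, Cct5, Cct6a, Cct7 or Cct8, and all 8 were found among its 25170 genes. Ribosome profiling digests a lysate with a nuclease and sequences the RNA that ribosomes shield, so a gene's reads depend on its mRNA level and on ribosome density together. The cells were wild-type E14, a line from the inner cell mass, held on gelatin in medium with serum and LIF, a cytokine that keeps such cells undifferentiated. 2 libraries came from cells kept in 1 µM PD over 3 passages, and 2 from cells kept in DMSO likewise over 3 passages. No fuller name of the compound is on the labels, and the series asks what the kinase Mek does in gene regulation after transcription. Nothing says that replicates grew as separate cultures, so each p-value reflects only how far these libraries spread, which may be technical. In the fit used below, each gene's spread is also drawn toward that of the other genes tested.

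TRiC, also called CCT, is a barrel of stacked rings in which each position is held by a different, related subunit. Unfolded proteins enter the cavity, and binding and hydrolysis of ATP by the subunits closes a built-in lid and lets the protein fold inside. Actin and tubulin cannot reach their native form without it, and cell cycle regulators such as Cdc20 also depend on it. Because the subunits assemble in equal numbers, their relative rates of synthesis are of interest. Footprints per length of transcript are only an approximate measure of these rates, since that length need not follow the number of codons. Embryonic stem cells are known for high levels of chaperones, and in human pluripotent cells the subunit CCT8 has been linked to proteome maintenance.

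The start regions of the genes with the highest and the lowest footprint level, Cct8 and Cct7, are shown with that of Cct2, since their levels are set side by side below. Each sequence runs 5′ to 3′ on the gene's strand, from 250 bases before to 50 bases after the start in RefSeq (GRCm38.p6), at chr16:87495820-87496119 (minus strand) for Cct8, chr6:85451255-85451554 (plus strand) for Cct7 and chr10:117063803-117064102 (minus strand) for Cct2. Capitals mark every match, on either strand, of GGGCGG, known as the GC box, of CCAAT, known as the CCAAT box, and of CCGGAAG, a motif of ETS factors, with no overlap between matches of different motifs.
Cct8: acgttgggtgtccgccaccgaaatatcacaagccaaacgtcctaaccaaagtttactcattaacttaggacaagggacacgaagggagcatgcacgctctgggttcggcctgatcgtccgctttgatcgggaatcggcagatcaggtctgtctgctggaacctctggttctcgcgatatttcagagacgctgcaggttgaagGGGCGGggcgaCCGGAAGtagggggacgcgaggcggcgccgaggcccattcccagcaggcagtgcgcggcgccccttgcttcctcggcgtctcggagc
Cct7: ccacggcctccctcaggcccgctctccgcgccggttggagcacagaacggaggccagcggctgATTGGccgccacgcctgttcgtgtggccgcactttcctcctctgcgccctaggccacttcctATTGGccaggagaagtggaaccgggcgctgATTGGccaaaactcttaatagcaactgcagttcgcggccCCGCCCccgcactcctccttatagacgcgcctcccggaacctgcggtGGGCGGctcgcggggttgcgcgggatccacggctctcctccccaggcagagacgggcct
Cct2: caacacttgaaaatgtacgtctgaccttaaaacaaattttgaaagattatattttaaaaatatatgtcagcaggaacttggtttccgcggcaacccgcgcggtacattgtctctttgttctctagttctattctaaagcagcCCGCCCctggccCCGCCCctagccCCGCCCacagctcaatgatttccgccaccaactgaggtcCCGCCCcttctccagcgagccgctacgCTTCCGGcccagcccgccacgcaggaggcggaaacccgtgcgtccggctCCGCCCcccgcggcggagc
The region of Cct7 held 3 CCAAT boxes and 2 GC boxes, that of Cct8 held 1 GC box and 1 ETS motif, and that of Cct2 held 5 GC boxes and 1 ETS motif. 7 of the 8 genes were matched in the RefSeq table of start regions, Cct4 not among them. A GC box was found in 7 of these 7, against 46.3% of the 17491 start regions of protein-coding genes. The CCAAT box was found in 4 of 7 (39.0% of all), and the ETS motif in 3 of 7 (11.9% of all). The core of the heat shock element, GAANNTTC, was found in 0 of 7 (7.34% of all). These matches describe the letters in the window and are not sites of binding.

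The libraries differed in depth along with the treatment. Reads recovered from the steps of the FPKM values (fragments scaled by transcript length and by mapped fragments) placed depth at 0.464 in PD replicate 1 and 0.201 in PD replicate 2, at 1 in DMSO replicate 1 by definition and at 1.42 in DMSO replicate 2. Over 7509 genes with recovered reads, reads per gene had medians of 30 and 13 in PD and of 65 and 93 in DMSO. The 8 markers of embryonic stem cells all passed the level filter, with a summed level of 2145 and 3760 FPKM in PD and 2210 and 2170 FPKM in DMSO. Most of that sum was Dppa5a, at 1421 and 3203 FPKM in PD and 1414 and 1633 FPKM in DMSO. Pou5f1, a defining factor of these cells, had 247 and 228 FPKM in PD and 326 and 245 FPKM in DMSO. Nanog had 136 and 116 FPKM in PD and 70.0 and 57.1 FPKM in DMSO (limma adjusted p = 0.803). Sox2 went the other way, with 36.0 and 34.6 FPKM in PD and 45.5 and 44.7 FPKM in DMSO (limma adjusted p = 0.837). Klf4 averaged 1.92 FPKM in PD and 1.91 FPKM in DMSO. Utf1, Esrrb and Tdgf1 overlapped between the groups, at log2 differences of -0.28, 0.19 and 0.17. The 7 fibroblast markers summed to 3.07 and 4.67 FPKM in PD and 2.10 and 2.52 in DMSO, the 5 primitive endoderm markers to between 0.242 and 1.502 in any library, and the 4 neural markers to between 1.40 and 3.29. Lum and Gata6 were listed at 0 in all 4 libraries. Differences in depth and in cell make-up were not tested as causes of any value below, and in bulk samples fewer cells of a type and less RNA per cell cannot be told apart.

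All 8 subunit genes were strongly covered. Positions below span the whole gene in RefSeq on GRCm38.p6. Their mean levels over the 4 libraries ran from 166 FPKM for Cct7 to 464 FPKM for Cct8, above 97.4% to 99.4% of the 8895 protein-coding genes tested. Together they took 1.05% and 1.10% of the FPKM on protein-coding genes in the PD libraries, and 1.08% and 1.14% in the DMSO libraries. Of the FPKM on all genes, small RNA genes held 99.65% and 99.70% in the PD libraries, and 99.72% and 99.54% in the DMSO libraries. FPKM is scaled by length, so these are not shares of reads. Recovered reads per subunit and library ran from 277, for Tcp1 in PD replicate 2, to 7487. The lowest of any other subunit was 318, for Cct7 in PD replicate 2. The reads of Tcp1 are the smallest whole numbers that could be fitted and may be a multiple too low. They imply a transcript length 0.518 times that of Cct2, against 0.941 to 1.25 times for the other subunits.

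Tcp1 (chr17:12916329-12925067) encodes the founding subunit, alpha, first known from the t-complex of mouse chromosome 17. It had 281 and 319 FPKM in the PD libraries, against 324 and 322 FPKM in the DMSO libraries. Both PD libraries lay below both DMSO libraries, PD replicate 2 by a small margin. Cct2 (chr10:117050997-117063852), the beta subunit, had 305 and 357 FPKM in PD, against 390 and 380 FPKM in DMSO. Its PD libraries were also the lower ones, without overlap. Cct3 (chr3:88297135-88321766), the gamma subunit, was the steadiest of the 8 across all libraries, at 391 and 384 FPKM in PD and 377 and 366 FPKM in DMSO. Its PD libraries lay slightly above its DMSO libraries.

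Cct4 (chr11:22990593-23003336), the delta subunit, carries the mutation of a sensory neuropathy in the rat. It stood at 469 and 534 FPKM in the PD libraries and at 334 and 394 FPKM in the DMSO libraries. Both PD libraries lay above both DMSO libraries, with the widest gap among the 8 genes. Cct5 (chr15:31590800-31601846), the epsilon subunit, whose human counterpart is also mutated in a hereditary sensory neuropathy, had 369 and 298 FPKM in PD and 360 and 369 FPKM in DMSO. PD replicate 2 was the low library, and PD replicate 1 lay between the DMSO libraries, within 1 FPKM of DMSO replicate 2, so the groups overlapped.

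Cct6a (chr5:129787356-129846443), the zeta subunit of most tissues, had 417 and 437 FPKM in PD and 474 and 402 FPKM in DMSO, with overlap. Its close testis paralogue Cct6b, picked for that kinship, was listed at 0 and 0.669 FPKM in PD and at 0.404 and 0 FPKM in DMSO, a low listing that does not show that the gene was silent. Cct7 (chr6:85451505-85468477), the eta subunit, which together with alpha contacts the tumour suppressor VHL in work with yeast, had 180 and 152 FPKM in PD and 174 and 158 FPKM in DMSO, and its PD libraries lay on either side of both DMSO libraries. Cct8 (chr16:87483325-87495869), the theta subunit, had 377 and 486 FPKM in PD and 471 and 522 FPKM in DMSO. PD replicate 1 was the low library and PD replicate 2 lay between the DMSO libraries.

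**Figure D1:**
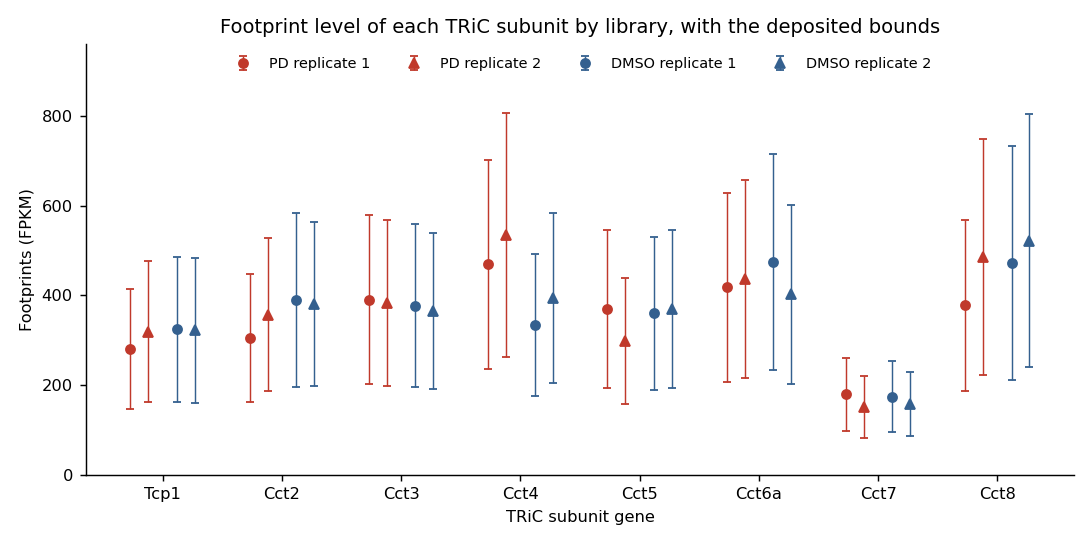
Footprint level in FPKM (vertical axis) of the 8 subunit genes (horizontal axis) in each library, PD in red and DMSO in blue, with the lower and upper confidence bounds of the authors' table as bars. Cct7 lies below the other 7 genes in every library, and the PD points of Cct4 lie above its DMSO points.

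The authors' bounds were far wider than the gaps between replicates. They reached 44.7% to 55.3% of the value to either side, and nothing in the files states their confidence level. Replicates differed by a median of 14.3% of their mean in PD (range 1.76% to 25.1%) and by 6.27% in DMSO (range 0.620% to 16.4%). For Cct4, the subunit with the widest gap between groups, the bounds in PD replicate 1 were 236 and 702 FPKM, and those in DMSO replicate 1 were 177 and 492 FPKM.

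By mean level over the 4 libraries the order was Cct8, Cct4, Cct6a, Cct3, Cct2, Cct5, Tcp1 and Cct7. Neighbours in this order were mostly not apart. Cct8 lay above Cct4 in 2 of 4 libraries, both of them DMSO, and Cct4 above Cct6a in 2 of 4, both of them PD. Cct6a lay above Cct3 in 4 of 4 libraries at a ratio of 1.14. Cct3 lay above Cct2 in 2 of 4 libraries, Cct2 above Cct5 in 3 of 4, and Cct5 above Tcp1 in 3 of 4. Tcp1 lay above Cct7 in 4 of 4, at a ratio of 1.88, the widest step in the order.

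Cct7 was the lowest subunit in each of the 4 libraries. Its level was 0.476 and 0.395 of the median of the other 7 subunits in the PD libraries, and 0.462 and 0.416 of it in the DMSO libraries. The highest and the lowest subunit differed 3.03-fold by PD means and 2.99-fold by DMSO means, and the other 7 subunits lay within 1.67-fold in PD and 1.54-fold in DMSO. In reads, with no length scaling, Cct8 had 2.04 and 3.12 times the reads of Cct7 in the PD libraries and 2.64 and 3.21 times in the DMSO libraries. The scaling length implied by the FPKM of 1 read was 1.25 times that of Cct2 for Cct7 and 1.22 times for Cct8. The ratios and the order of the subunits depend on these lengths, and footprints per codon were not computed.

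Copies of these genes elsewhere in the genome can share their reads. RefSeq names 5 pseudogene copies of Cct7, 3 each of Cct3 and Cct6a, 2 each of Tcp1 and Cct8, 1 of Cct4 and 0 of Cct2 and Cct5. None of these copies is among the genes of the table, and the treatment of reads with several matches is stated nowhere in the labels or files. Actg1, a cytoplasmic actin, and Hspa8, the constitutive Hsp70, were picked after their values were seen, as genes that every cell uses. Actg1 was listed at 0.273 and 1.89 FPKM in PD and 0 and 0.447 in DMSO, and Hspa8 at 2.69 and 5.07 FPKM in PD and 2.93 and 2.32 in DMSO. Other genes were listed high. Cct3 and Cct6a, with 3 copies each, averaged 379 and 433 FPKM over the 4 libraries. Actb, also an actin, had 1163 and 738 FPKM in PD and 1000 and 660 in DMSO. Levels of genes with close copies are uncertain, and the part of copies in the level of Cct7 was not tested.

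The deposited locus of 4 of the subunit genes overlaps that of other genes. Usp16, next to Cct8, had 6.86 and 9.47 FPKM in PD and 7.87 and 9.20 in DMSO, and Pradc1, next to Cct7, had 1.59 and 12.04 FPKM in PD and 5.15 and 1.5002 in DMSO. Both lie far below the subunit genes beside them. Acat3 and Snora20 at Tcp1 were listed at 0 throughout, and Snora15, a small nucleolar RNA inside Cct6a, was listed at 0 except for 192 FPKM in DMSO replicate 2.

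No subunit passed the test between PD and DMSO. limma on log2(FPKM + 1), adjusted by Benjamini-Hochberg over the 9741 genes that averaged 1 FPKM or more, gave adjusted p-values from 0.837 for Cct4 to 0.998 for Cct7, and 0 of the 8 had an unadjusted p under 0.05. Across all genes tested, 0.257% passed in either direction, 3 higher and 22 lower in PD, and these counts moved with each library left out, in fits where 1 group then had a single library, assumed to vary like the other group. Leaving out PD replicate 1 gave 13 genes higher in PD and 10 lower, and leaving out PD replicate 2 gave 27 and 20. In limma fits without DMSO replicate 1 or without DMSO replicate 2, 0 genes passed (344 and 416 at an unadjusted p under 0.05). 6 subunits had a log2 difference under 0 and 2 had one above 0. Their median was -0.07, beside -0.02 over all genes tested.

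4 of the 8 subunits had no overlap between groups, Cct3 and Cct4 with both PD libraries higher and Tcp1 and Cct2 with both lower. The background for this is wide: 35.8% of all tested genes had no overlap, 17.5% with both PD libraries above and 18.3% with both below. The summed level of the 8 genes was 2790 and 2966 FPKM in the PD libraries, 2878 ± 125 (SD, n = 2), against 2904 and 2913 FPKM in the DMSO libraries, 2908 ± 6.31 (SD, n = 2). The DMSO sums lay between the PD sums, so the complex as a whole showed no gap between the groups.

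**Figure D2:**
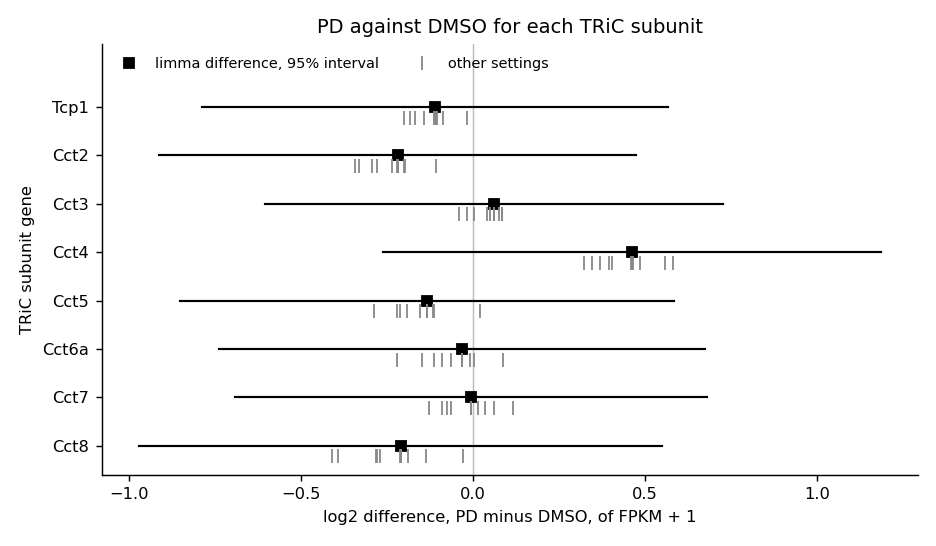
Difference between PD and DMSO on the log2(FPKM + 1) scale (horizontal axis) for each subunit gene (vertical axis), with squares for the limma estimate, lines for its 95% interval and grey ticks for the other settings. All 8 intervals include 0, and Cct4 has the largest difference, at 0.46.

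The intervals show what differences these libraries leave room for. limma draws each gene's variance toward a trend over all genes tested, so the intervals of the subunits rest mostly on the spread of other genes. Their SEs ran only from 0.25 for Cct3 to 0.28 for Cct8, although the SD of Cct3 over all libraries was 0.04. For Cct3 the log2 difference was 0.06, with a 95% interval from -0.61 to 0.73 (limma). For Cct7 it was -0.01, from -0.69 to 0.68, and both groups averaged 166 FPKM. For Cct8 it was -0.21, from -0.97 to 0.55, and the estimate was -0.030 without PD replicate 1 and -0.39 without PD replicate 2. In this fit, changes of 2-fold or more in either direction, a log2 difference of 1, lay outside the interval of every subunit but Cct4. Its upper end was 1.19. The lower ends of Cct8 and Cct2 came close, at -0.97 and -0.91. Quantile normalization moved their estimates to -0.41 and -0.34, so the statement holds for the main scaling only.

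Cct4 had the largest difference of the 8. It averaged 502 ± 46.3 FPKM in PD and 364 ± 42.0 FPKM in DMSO (SD, n = 2 each), a ratio of 1.38. Its log2 difference of 0.46 had an SE of 0.27 (adjusted p = 0.837, limma), and over the 14 other settings it ran from 0.32 to 0.58, with adjusted p-values from 0.571 to 1. Among 165 other protein-coding genes with levels between those of Cct7 and Cct8, 12.7% had a larger log2 difference.

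The make-up of the complex's footprints was described by each subunit's share. Cct4 gave 16.8% and 18.0% of the summed FPKM of the 8 subunits in the PD libraries, against 11.5% and 13.5% in the DMSO libraries. It held rank 1 among the 8 in both PD libraries, and held ranks 6 and 3 in the DMSO libraries. In recovered reads of the 7 subunits other than Tcp1, it held 17.4% in PD replicate 1 (95% Wilson interval 16.7% to 18.2%, 1776 of 10178 reads) and 18.8% in PD replicate 2 (17.7% to 19.9%), against 11.998% in DMSO replicate 1 (11.6% to 12.4%) and 14.1% in DMSO replicate 2 (13.7% to 14.5%). The intervals of the PD and DMSO libraries did not overlap, but neither did those of the DMSO libraries with each other, and these intervals cover counting error only. The choice of Cct4 here was made after its values were seen, and the share got no test of its own.

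**Figure D3:**
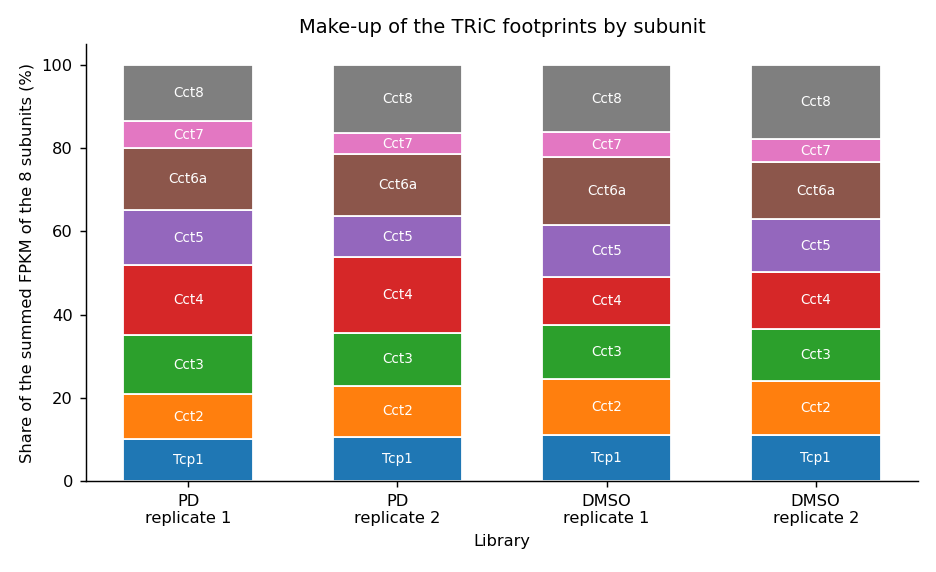
Share of each subunit in the summed FPKM of the 8 subunit genes (vertical axis, %) for each library (horizontal axis), with PD libraries on the left. The Cct4 segment is 16.8% and 18.0% in PD against 11.5% and 13.5% in DMSO, and the Cct7 segment is the smallest in every library.

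The mean shares of the other subunits differed less between the groups. Cct8 held 13.5% and 16.4% in the PD libraries and 16.2% and 17.9% in the DMSO libraries, so its groups overlapped and its lower mean in PD came mostly from PD replicate 1. Cct2 held 10.9% and 12.04% in the PD libraries and 13.4% and 13.1% in the DMSO libraries, without overlap. Cct7 averaged 5.78% in PD and 5.71% in DMSO, and Cct6a 14.8% in PD and 15.1% in DMSO. The mean share of Cct3 was 13.5% in PD and 12.8% in DMSO, that of Cct5 11.7% in PD and 12.5% in DMSO, and that of Tcp1 10.4% in PD and 11.1% in DMSO. Shares add to 100%, so the 8 are not independent of each other.

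The subunits varied little over the 4 libraries. The SD of log2(FPKM + 1) over all 4, groups ignored, ran from 0.04 for Cct3 to 0.29 for Cct4, with a median of 0.13. The 165 other protein-coding genes between the levels of Cct7 and Cct8 had a median SD of 0.30, and all 8 subunits lay below it, Cct4 only just. The median size of the log2 difference, sign ignored, was 0.12 for the subunits, 0.22 for those 165 genes and 0.32 for all genes tested.

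**Figure D4:**
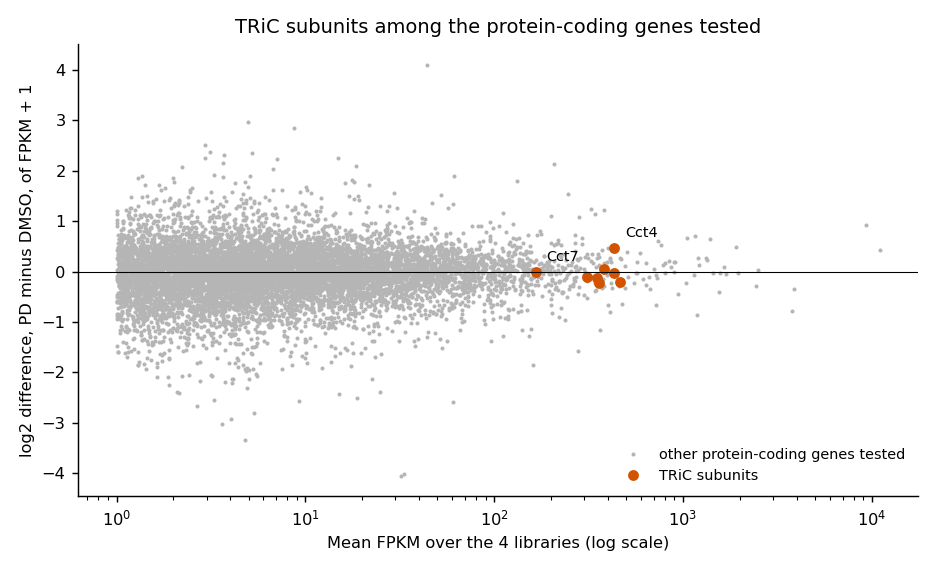
Difference between PD and DMSO on the log2(FPKM + 1) scale (vertical axis) against mean FPKM (horizontal axis, log scale) for the 8895 protein-coding genes tested, with the 8 TRiC subunits in orange. The subunits sit at the high end of the levels, between 166 and 464 FPKM, with differences from -0.22 to 0.46.

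Partners that hand proteins to TRiC or act on its products were compared in the same fit. In 7 lists of chaperonin partners, substrates and other chaperones, 0 of 76 tested genes passed (limma), and 1 had an unadjusted p under 0.05. 17 of the 76 (22.4%) had both PD libraries higher and 7 (9.21%) had both lower, beside 17.5% and 18.3% of all genes. Prefoldin captures unfolded actin and tubulin and passes them to TRiC. Its 6 subunits had a median log2 difference of -0.22, with Pfdn6 and Pfdn2 at -0.60 and -0.45. Pfdn5 had 268 and 675 FPKM in PD, against 180 and 177 FPKM in DMSO (limma adjusted p = 0.837), so its PD libraries differed from each other by more than the lower one did from DMSO.

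Phosducin-like proteins bind TRiC and help it with selected substrates. Of 3 tested, Pdcl was at 11.9 and 11.3 FPKM in PD and 13.7 and 18.8 in DMSO, and Txndc9 at 4.98 and 3.17 in PD and 2.31 and 2.33 in DMSO, so they stood apart in opposite directions. Pdcl3 overlapped, with a log2 difference of -0.15. The tubulin folding cofactors take tubulin on from TRiC and join its alpha and beta chains. Their 6 genes had a median log2 difference of 0.18. Tbca had 188 and 132 FPKM in PD and 120 and 106 in DMSO, and Tbcc and Arl2 overlapped between the groups, at log2 differences of 0.65 and -0.44.

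Known substrates of TRiC, among them actins, tubulins, G protein beta chains and WD-repeat proteins, had a median log2 difference of 0.12 over 27 tested genes, with 5 higher and 2 lower in both PD libraries. The abundant ones were Actb, at 1163 and 738 FPKM in PD and 1000 and 660 in DMSO, and Tubb5, at 688 and 531 FPKM in PD and 572 and 488 in DMSO, both picked after seeing their level. Their groups overlapped. The largest differences were those of thinly covered tubulin genes. Tuba1a had 4.36 and 2.32 FPKM in PD and 1.24 and 0.768 in DMSO (log2 difference 1.08, limma adjusted p = 0.837). Tubb2a and Tuba1c had log2 differences of 0.81 and -0.72. Tubulin and actin genes are close in sequence, so these values are uncertain.

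Relatives of the chaperonin had a median log2 difference of -0.05 over 4 tested genes. Hspe1, the lid of the mitochondrial chaperonin, had 229 and 184 FPKM in PD and 247 and 226 in DMSO, and Hspd1, its barrel, picked as the partner of Hspe1, 153 and 138 in PD and 129 and 142 in DMSO. Mkks and Bbs12, chaperonin-like proteins of the cilium that act with TRiC, had log2 differences of -0.73 and 0.41 at group means under 8 FPKM. The other cytosolic chaperones had a median of -0.02 over 19 genes and those of the endoplasmic reticulum and mitochondria 0.04 over 11. Bag3, a stress-inducible partner of Hsp70, had 2.73 and 1.35 FPKM in PD and 7.23 and 4.85 in DMSO, the one gene of unadjusted p under 0.05 (0.0308 by limma, adjusted p = 0.816). Dnaja1 and Dnajb6 had log2 differences of 0.63 and 0.60. Hspa5, the Hsp70 of the endoplasmic reticulum, had 807 and 1010 FPKM in PD and 674 and 583 in DMSO, with an adjusted p of 0.837 (limma), and Calr and P4hb had log2 differences of -0.33 and 0.30.

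Other complexes of unlike subunits differed in how level the listed footprints of their subunits were. The highest of the 6 MCM helicase subunits was 2.08 times the lowest in PD and 2.19 times in DMSO, and the 6 prefoldin subunits spanned 9.85-fold in PD and 3.44-fold in DMSO. The prefoldin span in PD turned on Pfdn5 and on the library, at 7.32-fold in PD replicate 1 and 16.6-fold in PD replicate 2, with coefficients of variation over subunits of 89.5% and 147%. By group means this coefficient was 28.5% in PD and 26.4% in DMSO for TRiC, 29.1% in PD and 30.7% in DMSO for MCM, and 125% in PD and 48.2% in DMSO for prefoldin. The 14 subunits of the proteasome core spanned 311-fold in PD and 293-fold in DMSO, with a few thinly covered genes at the low end. Psmb5 averaged 7.10 FPKM in PD and 3.12 in DMSO, and Psma5 12.4 in PD and 15.2 in DMSO. Apart from these and Psma3, the core subunits averaged 66.8 to 508 FPKM in either group. The cause of the low listings, reads shared with copies included, was not tested. Psma3, picked as the lowest of them, was listed at 1.29 and 1.98 FPKM in PD and 1.89 and 1.05 in DMSO. Psma2, a ring subunit of the proteasome core, had 76.9 and 122 FPKM in PD, against 202 and 228 FPKM in DMSO (log2 difference -1.14, limma adjusted p = 0.803). Psmb5 and Psma5 had log2 differences of 0.53 and -0.41, and Mcm3, Mcm6 and Mcm7 of -0.34, 0.27 and 0.23. The spans are descriptions, and no test was made between complexes.

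**Figure D5:**
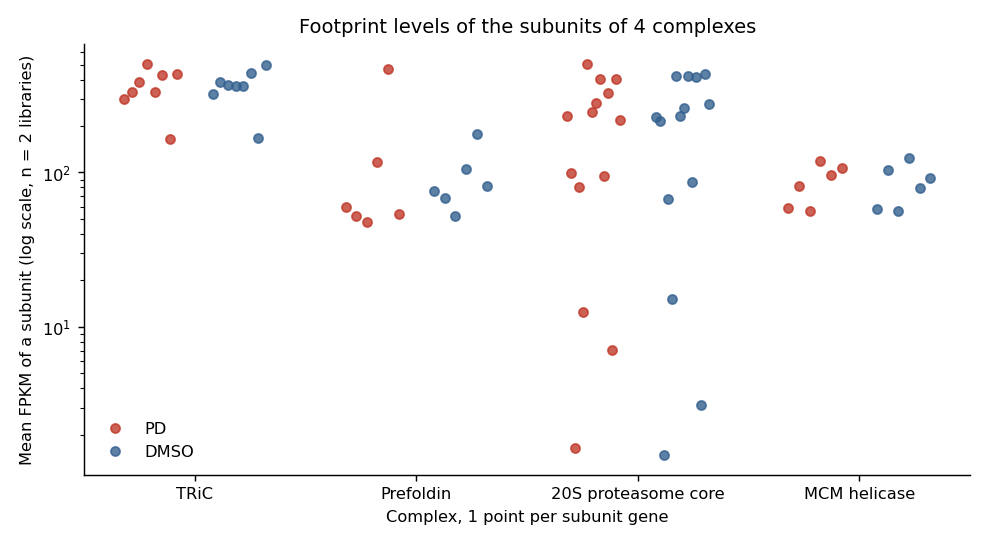
Mean FPKM of each subunit gene (vertical axis, log scale, n = 2 libraries) in PD (red, left) and DMSO (blue, right) for 4 complexes. The TRiC subunits lie in a band with Cct7 below it at 166 FPKM in both groups, while single proteasome core subunits lie under 10 FPKM. The cause of those low listings was not tested.

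The mean profile of the 8 subunits over the 4 libraries was nearly flat, at -0.04 and 0.02 in the PD libraries and 0.01 and 0.01 in the DMSO libraries on a centred log2 scale. Of 2116 other protein-coding genes with at least 20 FPKM, the 5 nearest to it by Euclidean distance over these 4 libraries were Ezh2, Malsu1, Adsl, Hsp90ab1 and Tex10, at distances from 0.0182 to 0.0484. Hsp90ab1, a cytosolic Hsp90, had 1424 and 1428 FPKM in PD and 1432 and 1464 FPKM in DMSO. Ezh2, the histone methyltransferase of a Polycomb complex, had 37.8 and 38.7 FPKM in PD and 38.9 and 38.6 in DMSO. With 4 libraries and a flat profile, nearness says little more than that these genes were steady too. Cct3 lay 0.106 from the mean profile and Cct4 0.524, and 1.18% and 53.2% of the 2116 genes lay closer.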

How the data were processed

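Ribosome footprints were measured in 4 libraries, 2 PD and 2 DMSO. The deposited values are FPKM per gene, each with 2 bounds and a status in the layout of Cufflinks, per the file headers. Cufflinks, STAR, Bowtie2, Trimmomatic, FastQC and build mm10 are named, without versions, in the submitters' processing notes. Of 25170 genes, 1 with a failed status was left out. Gene types came from a RefSeq table of GRCm38.p6, where 24976 symbols were found. Genes averaging 1 FPKM or more were fitted as log2(FPKM + 1) with limma 3.58.1 in R 4.3.3 (group as the only term, variance trend, 2 residual degrees of freedom), with Benjamini-Hochberg adjustment and a threshold of 0.05. Fold changes on this scale understate those of low genes. Whole reads were recovered from the steps of the FPKM values, with a tolerance of 0.01 reads, which worked for 73.9% of 10161 genes with values in every library and for 3.33% when wrong steps were tried. The fit and the recovery were also run on simulated data, with outcomes that are not given here.

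The subunits and lists were chosen with earlier results of these data known. The rule for named genes takes all subunits, the 3 largest differences of each list and the 5 nearest profiles. All 8 markers of embryonic stem cells are named as well, and the few others are called picked where they are named. Alternatives covered pseudocounts, filters, scalings, the variance trend, a replicate block, voom and leaving out each library. Footprints per codon and protein motifs were not analysed here, since protein lengths were not used.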

Additional observations from a re-analysis of the deposited data

How the results depend on the processing

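No subunit passed in any of the 14 other settings, and 103 of 112 recomputed subunit differences kept their sign. The filters, the variance trend and the replicate block cannot change these differences, and the pseudocounts barely moved them. Part of that count was therefore fixed in advance. Every change of sign came from a scaling, from voom or from a library left out. The median of the subunits was -0.18 with quantile normalization, -0.13 after rescaling with small RNA genes removed and -0.049 with upper quartile scaling. It was -0.15 with voom on recovered reads, and ran from -0.12 to -0.022 when 1 library was left out. The median over all genes tested moved as well. In the same order it was 0.024, -0.075, -0.005 and, over the genes with recovered reads, -0.050. With 1 library left out it ran from -0.029 to 0. Quantile normalization and voom turned Cct3 to -0.042 and -0.019, and quantile normalization and upper quartile scaling turned Cct7 to 0.034 and 0.015. With 1 library left out, Cct5 ran from -0.29 to 0.018, Cct6a from -0.15 to 0.086, Cct7 from -0.13 to 0.11 and Cct8 from -0.39 to -0.030. Cct8 was -0.41 with quantile normalization. Without PD replicate 1, Tcp1 was -0.019 and Cct2 was -0.11. voom passed 0 genes higher and 0 lower, with 469 at an unadjusted p under 0.05, and leaving out 1 library gave 0 to 27 higher and 0 to 20 lower. The replicate block, which the labels do not call for, gave 2 higher and 17 lower genes and 0 subunits, and same-numbered libraries deviated together at r = 0.203 across protein-coding genes, which are not independent replicates. The ratio of the highest to the lowest subunit ran from 2.61 to 3.53 in PD and from 2.73 to 3.30 in DMSO with 1 library left out. Upper quartile scaling and the rescaling with small RNA genes removed each apply 1 factor per library, so they moved all subunits by nearly the same amount. The cause of the other shifts was not tested. Depth was lowest in PD replicate 2, and the alternative of footprints per codon was not run.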
